A study of Mus musculus with 6 samples.

Results

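The 43 genes described here carry glucose into the cell, take it through glycolysis to lactate or into the mitochondrion, and store it as glycogen, with the entry enzyme of the pentose phosphate branch. They were chosen by symbol from 55471 genes in a count table of mouse left atrium, and each symbol matched 1 row. RNA had been sequenced from male C57BL/6J mice aged 10 weeks that received either mitral regurgitation (MR, backward flow through the valve into the left atrium), made by puncturing the anterior mitral leaflet under echocardiography, or a sham operation (Sham), in which the apex was punctured and the leaflet left intact. Left atria were collected 2 weeks later, with 3 mice in each group, labelled biological replicates, and the labels name no transgene or drug in either group. For each step the question was how the isoform typical of heart or striated muscle compared with the other isoforms of the same reaction.

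Heart muscle takes up glucose mainly through GLUT4, which moves to the cell surface in response to insulin and contraction, and through the constitutive transporter GLUT1. Most glycolytic reactions are served by several isoforms, and striated muscle uses its own form at many steps, such as muscle phosphofructokinase, muscle phosphoglycerate mutase, beta-enolase and muscle glycogen phosphorylase. Pyruvate then either becomes lactate or enters the mitochondrion through the mitochondrial pyruvate carrier and is oxidised by pyruvate dehydrogenase. The adult heart relies mostly on fatty acids for energy, and a greater share of glucose use is a known feature of the fetal and the overloaded heart.

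All 43 genes passed the filter on low counts and could be tested. At a Benjamini-Hochberg adjusted p below 0.05 in edgeR's quasi-likelihood test, 6 were higher in MR and 18 were lower, while 19 did not pass. Across the 15218 genes tested, 22.4% passed, 11.8% as higher and 10.6% as lower, against 55.8%, 14% and 41.9% of the 43 genes. The median log2 fold change (log2 change below) of the 43 genes was -0.18, in a range from -0.97 to 1.37, and that of all genes tested was 0.00. The 24 calls dropped to 15 without Sham 1 or without Sham 2, and the 6 higher genes to 3 without Sham 1, Sham 2, MR 1 or MR 2. Without each single library 13 kept their call. In 31 of the 43 the 3 MR libraries did not overlap with the 3 Sham libraries, against 41.9% of all genes tested.

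The split depended on how libraries were scaled. TMM, which centres the typical gene, gave 6 higher and 18 lower. Scaling by library totals alone raised the median of all genes by 0.21 on the log2 scale. It gave 10 higher and 9 lower of the 43, with 4025 higher and 574 lower among all 15218 genes tested. The 9 that stayed lower under library totals were Slc2a4, Slc2a12, Hk2, Pgam2, Eno3, Ldhb, Mpc1, Mpc2 and Pygm. All 6 that were higher stayed higher, and Pfkp, Pfkfb2, Aldoc and Slc16a1 joined them. Since this scaling raised the typical gene, a higher call could hardly be lost under it, so that keeping the call carries no weight. In the authors' TPM (a share of all transcripts, which corrects for gene length), the median gene tested rose by 0.34 on the log2 scale of the ratio of group means. There, 25 of the 43 had a higher mean in MR and 18 a lower one. Fold changes below are relative to the typical gene (TMM), levels are CPM (counts relative to TMM-scaled library size) as mean ± SD with n = 3, and a ± after a log2 change is its SE.

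Taken by kind, the 12 muscle or heart isoforms held 8 lower genes and none higher by edgeR, with a median log2 change of -0.55. The 17 other isoforms of the same steps held 5 higher genes and 1 lower, with a median of 0.20. Ldha and Slc16a3, which fast skeletal muscle also uses, were grouped with the other isoforms, since Ldhb and Slc16a1 are the heart forms. Of the 10 genes listed here without another isoform of the same reaction, 1 was higher and 5 were lower (median -0.33). All 4 subunits of pyruvate dehydrogenase and of the pyruvate carrier were lower (median -0.55).

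**Figure D1:**
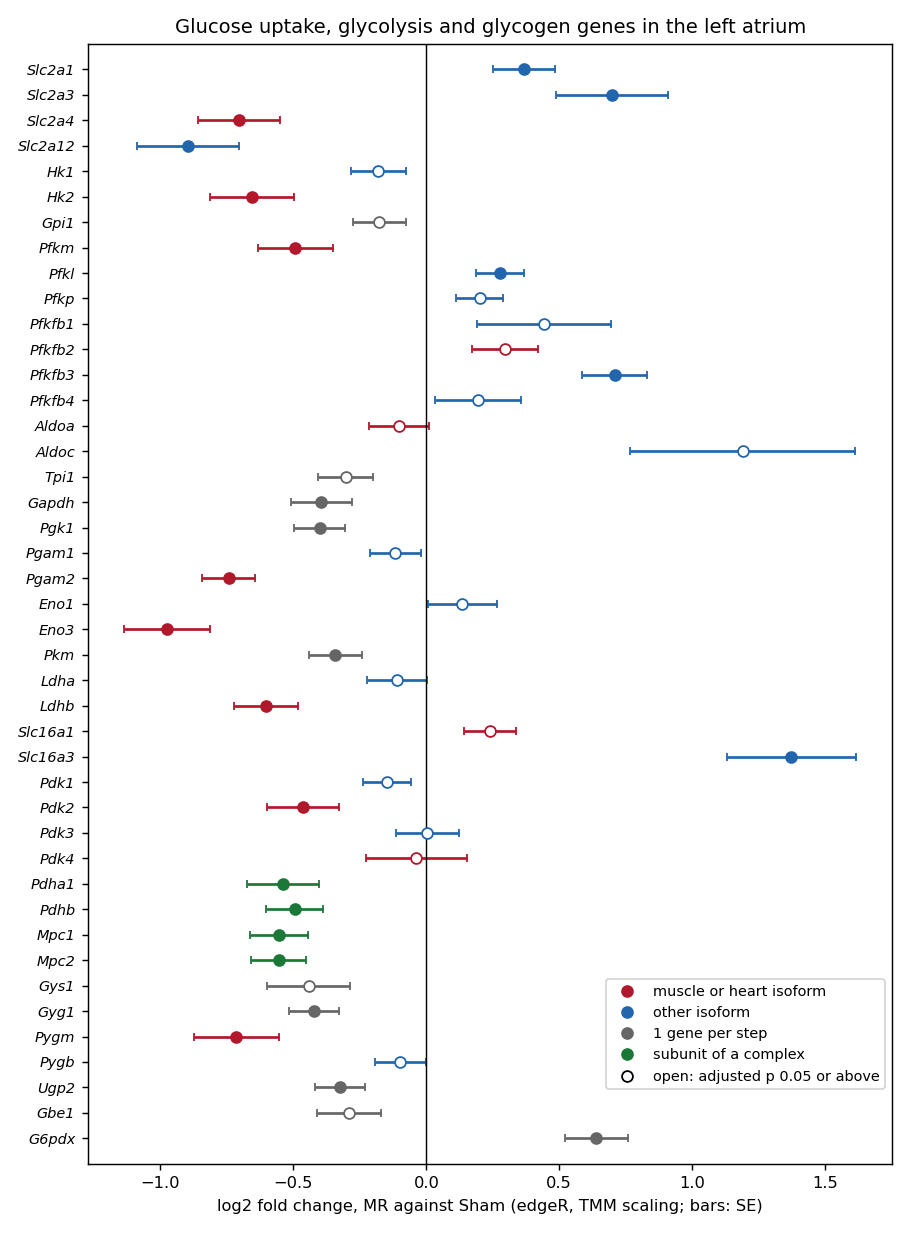
Log2 fold change of each of the 43 genes in MR against Sham (x axis, edgeR with TMM scaling), in the order of the pathway, with bars for the SE. Filled points passed an adjusted p of 0.05 and open points did not; the red muscle or heart isoforms lie mostly left of 0, from -0.97 to 0.30, and the blue other isoforms mostly right of it, from -0.90 to 1.37, where under library totals the open points of Hk1, Gpi1, Aldoa, Pgam1, Ldha, Pdk1, Pdk4 and Pygb move from just below 0 to just above it.

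Libraries held 14124407 to 20039490 counts, and the 43 genes took 0.927% to 1.13% of them. The 10 markers of cardiomyocytes, the contractile cells of the atrium, were detected in every library and summed to 69253 to 76985 CPM in Sham and 41792 to 59103 CPM in MR (0.70 of the Sham mean), with 7 of 10 lower by edgeR. Markers of macrophages and monocytes summed to 462 to 478 CPM in Sham and 636 to 841 CPM in MR, with 9 of 10 higher. Fibroblast markers summed to 3999 to 4167 and 4871 to 5520 CPM (3 of 8 higher), endothelial markers to 1153 to 1547 and 1641 to 2173 CPM (4 of 8 higher), and red blood cell markers to 261 to 330.0 and 407 to 537 CPM (4 of 5 tested higher). Adipocyte markers summed to 2052 to 2186 CPM in Sham and 1869 to 2716 CPM in MR, with Adipoq, Cidec, Cfd and Car3 high in MR 1 and MR 2 alone. Fast skeletal muscle markers were near 0 beside the cardiac ones, at 53.5 to 57.3 CPM in Sham and 21.4 to 32.3 CPM in MR, with Myh4 at 0 in every library. Of 6 tested, Tnni2 and Atp2a1 were lower (log2 changes of -2.59 and -1.79) and Actn3 was higher (1.93) by edgeR. In bulk tissue, fewer cells of a type and less RNA per cell cannot be told apart. The part of these shifts in the results below was not tested, and the levels relative to cardiomyocyte markers given further on are a description.

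**Figure D2:**
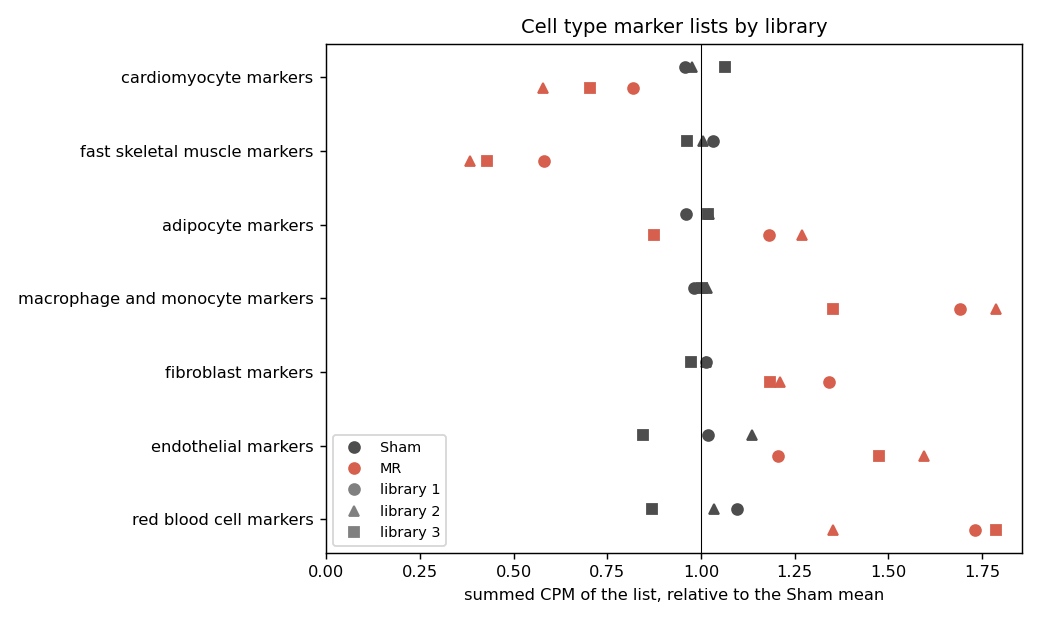
Summed CPM of each cell type marker list in each library (x axis, relative to the Sham mean of that list), with dark symbols for Sham and red for MR. The sum of cardiomyocyte markers was lower in all 3 MR libraries and lowest in MR 2, at 41792 CPM. The sums of macrophage, fibroblast, endothelial and red blood cell markers were higher in all 3, though not every marker in them rose. The adipocyte sum, made up mostly of Lpl, was higher in MR 1 and MR 2 and lower in MR 3.

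Promoter sequences are shown for the largest fall (Eno3) and the largest rise (Slc16a3). Also shown are those of the muscle and non-muscle forms of phosphoglycerate mutase (Pgam2 and Pgam1) and of Slc16a1, the heart lactate transporter beside Slc16a3. Each is the 250 bases before the RefSeq start, 5′ to 3′ on the gene's strand in GRCm38.p6: Eno3 at chr11:70656926-70657175 (plus), Pgam2 at chr11:5803797-5804046 (minus), Pgam1 at chr19:41911621-41911870 (plus), Slc16a3 at chr11:120948817-120949066 (plus) and Slc16a1 at chr3:104638414-104638663 (plus). Capitals mark the core ACGTG or GCGTG on either strand (read as CACGT or CACGC on the printed one), the core letters to which hypoxia-inducible factors bind. ACGTG lies within the E-box CACGTG, which other factors bind and which counts as 1 match on each strand.
Eno3: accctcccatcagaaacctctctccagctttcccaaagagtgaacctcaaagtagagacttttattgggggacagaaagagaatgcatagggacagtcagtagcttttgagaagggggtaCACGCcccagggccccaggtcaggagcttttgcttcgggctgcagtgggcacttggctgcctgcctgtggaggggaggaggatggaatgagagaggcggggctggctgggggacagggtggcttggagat
Pgam2: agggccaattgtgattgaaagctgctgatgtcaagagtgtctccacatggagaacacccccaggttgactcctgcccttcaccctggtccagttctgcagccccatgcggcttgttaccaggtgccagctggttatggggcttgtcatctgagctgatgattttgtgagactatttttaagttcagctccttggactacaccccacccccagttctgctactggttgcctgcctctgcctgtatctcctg
Pgam1: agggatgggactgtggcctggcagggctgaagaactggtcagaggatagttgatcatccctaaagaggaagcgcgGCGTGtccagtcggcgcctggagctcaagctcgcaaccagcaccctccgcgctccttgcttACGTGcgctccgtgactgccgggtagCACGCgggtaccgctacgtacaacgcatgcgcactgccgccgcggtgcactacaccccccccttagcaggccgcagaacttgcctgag
Slc16a3: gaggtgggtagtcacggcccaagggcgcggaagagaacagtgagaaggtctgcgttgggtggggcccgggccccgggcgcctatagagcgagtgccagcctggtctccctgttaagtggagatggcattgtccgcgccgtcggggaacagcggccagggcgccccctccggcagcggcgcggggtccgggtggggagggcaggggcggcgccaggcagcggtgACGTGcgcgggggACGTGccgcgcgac
Slc16a1: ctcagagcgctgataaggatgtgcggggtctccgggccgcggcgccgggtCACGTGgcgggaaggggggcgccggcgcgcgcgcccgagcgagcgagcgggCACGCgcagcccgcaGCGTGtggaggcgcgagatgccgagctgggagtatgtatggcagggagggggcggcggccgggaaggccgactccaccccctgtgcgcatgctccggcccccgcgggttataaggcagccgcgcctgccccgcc
The core matched 4 times in the window of Slc16a1 and 3 times in that of Pgam1, 2 times in that of Slc16a3, 1 time in that of Eno3 and 0 times in that of Pgam2. GC content was 76.4%, 64.0%, 73.6%, 57.2% and 53.2% in the same order. Of the 40 genes with an entry in the RefSeq table, 34 (85.0%) held the core in at least 1 window, as did 41.5% of the 27025 genes in that table, and 44 of their 61 windows (72.1%) held it against 38.6% of all 32851 windows. Such a match is a description of letters, and the windows were not matched on GC content.

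At uptake, the insulin-responsive transporters Slc2a4 and Slc2a12 fell, and Slc2a1 and Slc2a3 rose. Slc2a12 was grouped here with the other isoforms, since Slc2a4 is the main muscle form. Slc2a4, which encodes GLUT4, was at 330.4, 330.0 and 381 CPM in Sham 1, 2 and 3 and at 265, 168 and 207 CPM in MR 1, 2 and 3. All MR libraries lay below all Sham libraries, with MR 2 lowest, and the log2 change was -0.70 ± 0.15 (adjusted p = 0.0123 in edgeR). Slc2a12, another insulin-responsive transporter of heart and fat, went from 9.17 ± 1.32 to 4.89 ± 1.09 CPM, a log2 change of -0.90 ± 0.19 (adjusted p = 0.0116 in edgeR).

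Slc2a1, which encodes GLUT1, was at 17.4, 16.5 and 20.03 CPM in Sham and 25.6, 22.9 and 21.1 CPM in MR (log2 change 0.37 ± 0.12, adjusted p = 0.0487 in edgeR). Its groups did not overlap, but Sham 3 and MR 3 lay close together. Slc2a3, the GLUT3 of neurons and white blood cells, was rare, with 34 to 70 counts a library, and rose from 2.50 ± 0.40 to 4.06 ± 0.54 CPM (log2 change 0.70 ± 0.21, adjusted p = 0.0389 in edgeR). Both rises ended in DESeq2 (adjusted p = 0.0669 and 0.0675) and without single libraries in edgeR. That of Slc2a1 ended without Sham 1, Sham 2, MR 1 or MR 2 (adjusted p up to 0.16), and that of Slc2a3 without any library other than MR 3 (up to 0.14). Macrophage markers, which stand for cells that also use GLUT1 and GLUT3, were higher in the same MR libraries, and their part in these rises was not tested.

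Among hexokinases, which trap glucose as glucose 6-phosphate, the insulin-regulated muscle form fell. Hk2 was at 184, 199 and 242 CPM in Sham and 163, 108 and 126 CPM in MR, without overlap, and its log2 change was -0.65 ± 0.16 (adjusted p = 0.0171 in edgeR). The call ended without Sham 3 (0.0626) or MR 3 (0.0511). Hk1, the form of most tissues, averaged 123 ± 12.5 CPM in Sham and 109 ± 5.98 in MR, with overlapping groups (log2 change -0.18 ± 0.10, adjusted p = 0.231 in edgeR). Gpi1, the isomerase that follows, was at 503 ± 39.3 and 445 ± 13.9 CPM (log2 change -0.18 ± 0.10, adjusted p = 0.234 in edgeR). The values of Hk1 and Gpi1 turned to 0.028 and 0.030 under library totals.

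Phosphofructokinase commits the sugar to glycolysis, and its subunits moved apart. The muscle subunit Pfkm was at 663, 695 and 803 CPM in Sham and 595, 422 and 519 CPM in MR (log2 change -0.49 ± 0.14, adjusted p = 0.0326 in edgeR). The liver subunit Pfkl was at 40.5, 41.7 and 45.2 CPM in Sham and 54.1, 52.6 and 47.7 CPM in MR (log2 change 0.28 ± 0.09, adjusted p = 0.0491 in edgeR). Neither pair of groups overlapped. The call of Pfkm ended without any library other than MR 1 (adjusted p up to 0.108 in edgeR) and under library totals (0.127). The call of Pfkl ended without any of the 6 libraries (up to 0.143) and in DESeq2 (0.0831). Pfkp, the platelet subunit, was at 37.5 ± 1.52 and 43.1 ± 3.12 CPM and did not pass (log2 change 0.20 ± 0.09, adjusted p = 0.128 in edgeR).

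The bifunctional enzymes that make and break fructose 2,6-bisphosphate, the activator of phosphofructokinase, gave a clear rise in Pfkfb3, the inducible form with the strongest kinase activity. Pfkfb3 was at 31.1, 27.1 and 30.0 CPM in Sham and 41.5, 57.0 and 45.8 CPM in MR. All MR libraries lay above all Sham libraries, with MR 2 highest, and the log2 change was 0.71 ± 0.12 (adjusted p = 0.0053 in edgeR). Pfkfb2, the heart form, was at 61.9, 81.9 and 76.6 CPM in Sham and 82.1, 87.7 and 100.3 CPM in MR. These groups met without overlapping, since Sham 2 and MR 1 were nearly equal, and the gene did not pass (log2 change 0.30 ± 0.12, adjusted p = 0.111 in edgeR). Pfkfb1 and Pfkfb4 were at 1.87 ± 0.24 and 6.45 ± 1.17 CPM in Sham and 2.57 ± 0.57 and 7.34 ± 0.13 CPM in MR, with overlap in both (adjusted p = 0.232 and 0.412 in edgeR).

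Aldolase splits the hexose, and triose phosphate isomerase interconverts the products. Aldoa, the muscle aldolase, was at 1707, 1507 and 1684 CPM in Sham and 1546, 1539 and 1480.2 CPM in MR. The groups overlapped, and its log2 change of -0.10 ± 0.11 (adjusted p = 0.551 in edgeR) became 0.10 under library totals. The brain form Aldoc had 4 to 25 counts a library and did not pass (log2 change 1.19 ± 0.42, adjusted p = 0.0692 in edgeR). Tpi1, triose phosphate isomerase, was at 549 ± 37.2 and 445 ± 25.5 CPM without overlap (log2 change -0.30 ± 0.10, adjusted p = 0.0594 in edgeR), and it passed in DESeq2 (0.0188).

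Pgk1, which makes the first ATP, was at 297, 262 and 276 CPM in Sham and 202, 210.1 and 221 CPM in MR, a fall of 0.40 ± 0.10 on the log2 scale without overlap (adjusted p = 0.0167 in edgeR). The call ended without Sham 1 (0.0637) and under library totals (0.155). Gapdh, the dehydrogenase before it, was counted at 85.7 ± 4.39 and 65.1 ± 9.83 CPM (log2 change -0.39 ± 0.12, adjusted p = 0.0351 in edgeR). Its level is uncertain: it had 7343 counts in all, and 106 of its 243 annotated pseudogene copies held a further 5902 counts, 80.4% of its own. Without any library other than MR 3 the call of Gapdh ended (adjusted p up to 0.101 in edgeR), as it did under library totals (0.204).

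Between 3-phosphoglycerate and pyruvate, the muscle forms of the mutase and of enolase and pyruvate kinase fell. Pgam2 (ENSMUSG00000020475), the muscle phosphoglycerate mutase, was at 490.4, 521 and 509 CPM in Sham and 313, 276 and 319.9 CPM in MR. The groups were far apart, and the log2 change was -0.74 ± 0.10 (adjusted p = 0.00207 in edgeR). Pgam1, the form of most tissues, was at 24.0 ± 1.46 and 22.2 ± 1.27 CPM with overlapping groups (log2 change -0.12 ± 0.10, adjusted p = 0.419 in edgeR, and 0.092 under library totals).

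Eno3 (ENSMUSG00000060600), the beta-enolase of striated muscle, was at 919.7, 866 and 856 CPM in Sham and 508, 331 and 506 CPM in MR. Each MR library lay well below each Sham library and MR 2 was lowest, for a log2 change of -0.97 ± 0.16 (adjusted p = 0.00445 in edgeR). Eno1, the alpha-enolase of most cells and of the fetal heart, was at 100.1 ± 9.76 and 110.0 ± 18.0 CPM with overlap (log2 change 0.14 ± 0.13, adjusted p = 0.48 in edgeR). Pkm, pyruvate kinase, whose adult M1 and proliferative M2 splice forms are not separated by counts per gene, was at 641, 569.9 and 635 CPM in Sham and 497, 464 and 495 CPM in MR. It fell by 0.34 ± 0.10 on the log2 scale (adjusted p = 0.0362 in edgeR). The fall ended without any library other than MR 1 (adjusted p up to 0.108) and under library totals (0.329).

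**Figure D3:**
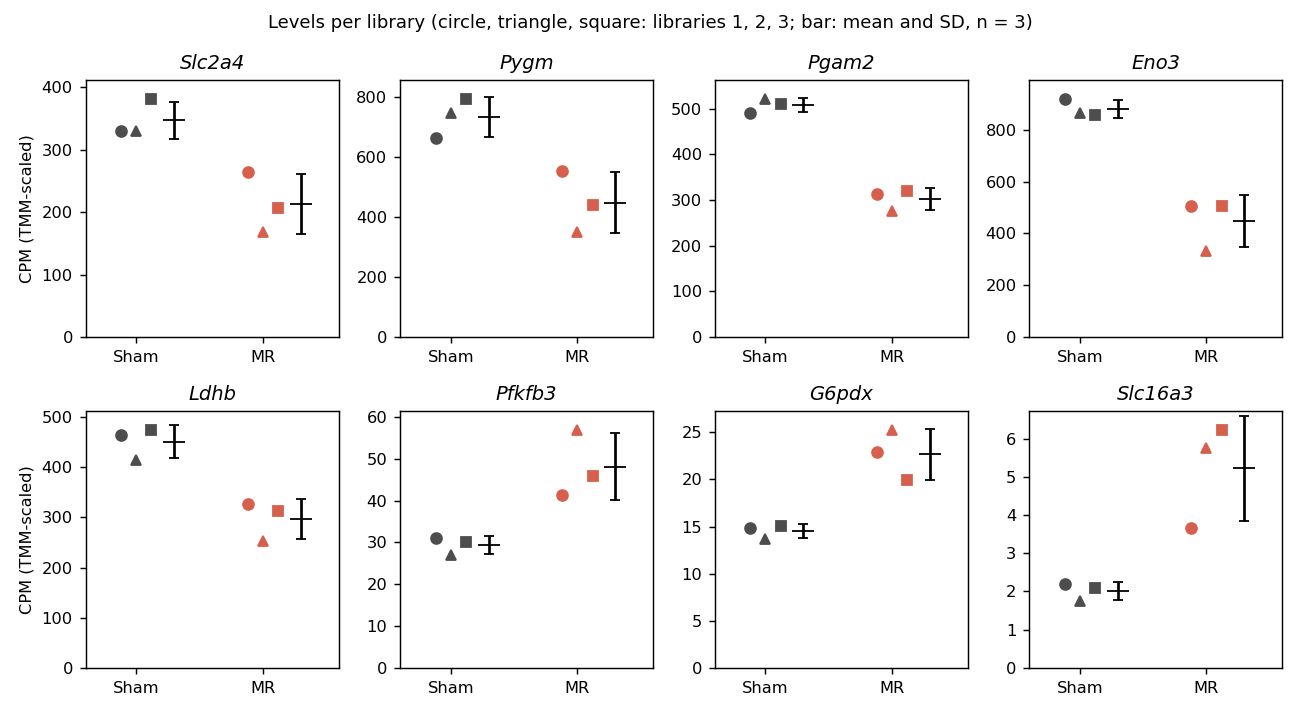
CPM on TMM-scaled libraries (y axis, starting at 0) of 8 genes that kept their call without each single library, in Sham (dark) and MR (red), with the mean and SD of 3 libraries beside them. In each panel the groups do not overlap; Slc2a4, Pygm, Pgam2, Eno3 and Ldhb lie lower in MR, with MR 2 lowest, and Pfkfb3, G6pdx and Slc16a3 lie higher.

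Lactate dehydrogenase interconverts pyruvate and lactate, and of its subunits the heart form fell. Ldhb was at 464, 414 and 475 CPM in Sham and 326, 252 and 312 CPM in MR, without overlap (log2 change -0.60 ± 0.12, adjusted p = 0.00889 in edgeR). Ldha, the subunit of fast muscle and of hypoxic cells, was at 326, 266 and 278 CPM in Sham and 259.9, 294 and 252 CPM in MR. These overlapped, and its log2 change was -0.11 ± 0.11 (adjusted p = 0.509 in edgeR), or 0.10 under library totals.

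Of the lactate transporters, Slc16a3 (ENSMUSG00000025161) had the largest rise among the 43 genes. It encodes MCT4, the exporter of highly glycolytic cells such as fast muscle fibres and activated macrophages. It was at 2.18, 1.75 and 2.097 CPM in Sham (24 to 41 counts) and 3.66, 5.76 and 6.24 CPM in MR (56 to 125 counts). All MR libraries lay above Sham, with MR 1 nearest, and the log2 change was 1.37 ± 0.24 (adjusted p = 0.0056 in edgeR). Slc16a1, the MCT1 of heart muscle, had 89.6 TPM in Sham on average against 0.773 TPM for Slc16a3, and was at 207, 179 and 197 CPM in Sham and 236, 236 and 216 CPM in MR. It did not overlap between groups and did not pass (log2 change 0.24 ± 0.10, adjusted p = 0.102 in edgeR), though it passed under library totals (0.0121). Macrophage markers were 1.61 times the Sham mean in MR, and their part in the rise of Slc16a3 was not tested.

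All 4 genes of the pyruvate carrier and of the first enzyme of pyruvate dehydrogenase fell. Mpc1 and Mpc2 form the mitochondrial pyruvate carrier. Mpc1 was at 196, 174 and 161 CPM in Sham and 117, 112 and 132 CPM in MR (log2 change -0.55 ± 0.11, adjusted p = 0.00818 in edgeR). Mpc2 was at 115, 97.3 and 100.4 CPM in Sham and 76.9, 66.8 and 69.5 CPM in MR (log2 change -0.56 ± 0.10, adjusted p = 0.00655 in edgeR). Both carrier genes were separated between groups and held their calls without each single library and under library totals.

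Pdha1 and Pdhb encode the alpha and beta subunits of pyruvate dehydrogenase, the gate to the citrate cycle. Pdha1 was at 1104, 1049 and 1023 CPM in Sham and 804, 593 and 790.4 CPM in MR (log2 change -0.54 ± 0.13, adjusted p = 0.0197 in edgeR). Pdhb was at 477, 450.0 and 474 CPM in Sham and 348, 293 and 353 CPM in MR (log2 change -0.50 ± 0.11, adjusted p = 0.0111 in edgeR). For both genes the highest MR library stayed below the lowest Sham library, and MR 2 was lowest. The call of Pdha1 ended without Sham 1 or Sham 2 (adjusted p = 0.0735 and 0.057 in edgeR), and under library totals neither gene passed (0.0631 and 0.0505).

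Pyruvate dehydrogenase kinases switch this complex off. Pdk2, a main kinase of heart, was at 196, 223 and 253 CPM in Sham and 189.8, 139 and 158 CPM in MR. Sham 1 and MR 1 lay close together without overlapping, and the log2 change was -0.46 ± 0.14 (adjusted p = 0.036 in edgeR). Its call ended without Sham 2, Sham 3, MR 2 or MR 3 (adjusted p up to 0.12) and under library totals (0.163). Pdk4, the kinase induced by fasting and fatty acids, was at 180.2, 182 and 152 CPM in Sham and 151, 124 and 226 CPM in MR. MR 3 was above and MR 2 below every Sham library, so that the log2 change of -0.04 ± 0.19 (adjusted p = 0.906 in edgeR) had no stable sign: it was 0.16 under library totals and 0.14 without MR 2. Pdk1 was at 155 ± 3.05 and 139.9 ± 8.94 CPM (adjusted p = 0.268 in edgeR), and Pdk3 at 12.002 ± 1.01 and 12.04 ± 0.50 CPM (adjusted p = 0.982 in edgeR).

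In glycogen metabolism, the muscle phosphorylase fell and the brain form did not pass. Pygm (ENSMUSG00000032648), which releases glucose from glycogen in muscle, was at 662, 744 and 793 CPM in Sham and 551, 349 and 439 CPM in MR. The groups did not overlap, MR 2 was lowest, and the log2 change was -0.71 ± 0.16 (adjusted p = 0.0132 in edgeR). Pygb was at 464, 503 and 501 CPM in Sham and 457, 467 and 448 CPM in MR, with slight overlap (log2 change -0.10 ± 0.09, adjusted p = 0.494 in edgeR, and 0.11 under library totals).

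On the side of synthesis, Gyg1, the glycogenin that primes the particle, was at 155, 163 and 158 CPM in Sham and 118, 109.7 and 127 CPM in MR. The Sham libraries lay within a narrow band above all MR libraries (log2 change -0.42 ± 0.09, adjusted p = 0.0124 in edgeR), but the gene did not pass under library totals (0.0859). Ugp2, which makes UDP-glucose, was at 139, 124 and 121 CPM in Sham and 98.9, 99.4 and 109 CPM in MR (log2 change -0.32 ± 0.09, adjusted p = 0.0355 in edgeR). Its call ended without any of the 6 libraries (adjusted p up to 0.113) and under library totals (0.37), and its mean TPM was 85.1 in Sham and 85.7 in MR. Gys1, muscle glycogen synthase, was at 68.3, 78.1 and 82.1 CPM in Sham and 71.3, 45.2 and 51.8 CPM in MR, where MR 1 overlapped with Sham (log2 change -0.44 ± 0.16, adjusted p = 0.0663 in edgeR). It passed in DESeq2 (0.0349). Gbe1, the branching enzyme, was at 28.9 ± 2.28 and 23.6 ± 3.38 CPM with overlap (adjusted p = 0.106 in edgeR).

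G6pdx, the first enzyme of the pentose phosphate branch and a source of NADPH, rose. It was at 14.9, 13.7 and 15.0 CPM in Sham and 22.9, 25.3 and 19.9 CPM in MR, and all MR libraries lay above all Sham libraries (log2 change 0.64 ± 0.12, adjusted p = 0.00665 in edgeR). The call of G6pdx held without each single library. It also held under library totals, a scaling that raised the typical gene and so could hardly end a higher call.

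The share of a step's TPM taken by its muscle or heart isoform compares genes per length and does not depend on how libraries are scaled. It was lower on average in MR at all 11 steps that have both kinds of isoform, and at 9 of them the groups did not overlap. Among all genes tested, 41.9% did not overlap in CPM. How often shares of other gene pairs fall or separate was not computed, so these counts cannot be called particular to these steps. The groups differed most in glycogen phosphorylase, where Pygm took 68.1%, 68.9% and 70.3% in Sham and 64.3%, 52.8% and 59.4% in MR. Hk2 took 70.6%, 69.4% and 72.0% of hexokinase TPM in Sham and 67.4%, 58.1% and 63.8% in MR. Ldhb took 75.0%, 76.7% and 78.3% of lactate dehydrogenase TPM in Sham and 72.6%, 64.4% and 72.3% in MR. In each of these the Sham libraries were close together and MR 2 stood lowest, as it did at 10 of the 11 steps, and MR 2 also had the lowest sum of cardiomyocyte markers.

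Slc2a4 went from 92.9% ± 0.16 to 87.8% ± 1.70 of the 4 transporters, Eno3 from 96.5% ± 0.31 to 92.2% ± 3.08 of the enolases, and Pfkm from 95.9% ± 0.24 to 93.2% ± 1.22 of phosphofructokinase. Pgam2 went from 98.0% ± 0.07 to 97.0% ± 0.41 and Slc16a1 from 99.1% ± 0.04 to 98.1% ± 0.55. Aldoa kept 99.97% in Sham and 99.93% in MR. The groups overlapped for Pfkfb2, at 63.9% ± 3.87 and 59.3% ± 3.88, and for Pdk2 with Pdk4, at 82.9% ± 0.47 and 81.1% ± 2.17. The 9 separated steps each had a two-sided exact permutation p of 0.1, the smallest that 3 against 3 allows, and an adjusted p of 0.122 over the 11 steps, so that none could pass 0.05. The other 2 had an exact p of 0.2.

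**Figure D4:**
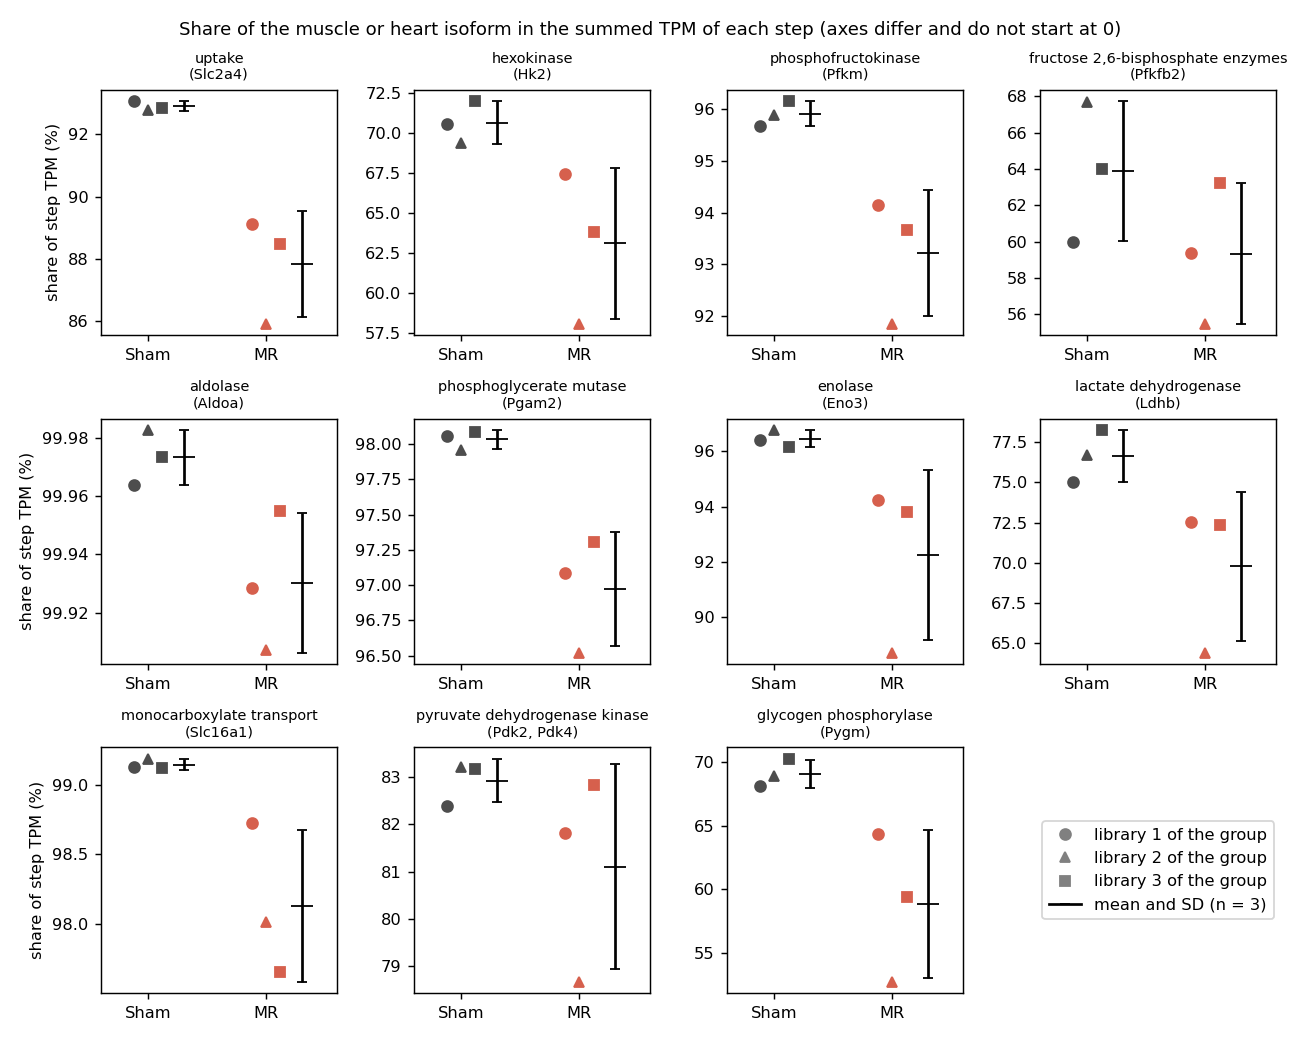
Share of the muscle or heart isoform in the summed TPM of each of 11 steps (y axis in percent, with its own range in each panel, not starting at 0), in Sham (dark) and MR (red) libraries, with mean and SD of 3. The MR mean is lower in every panel and the groups overlap only in the panels of Pfkfb2 and of Pdk2 with Pdk4; MR 2, the triangle, is the lowest in 10 of 11.

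Summed over isoforms, the steps did not move alike. Enolase TPM went from 1071 ± 51.1 to 713 ± 129, and phosphoglycerate mutase TPM from 1256 ± 54.7 to 955 ± 52.5, each without overlap between groups. The fructose 2,6-bisphosphate enzymes summed to 32.3 ± 3.17 TPM in Sham and 53.8 ± 3.92 TPM in MR, and the monocarboxylate transporters to 90.4 ± 8.84 and 136 ± 11.9 TPM, also without overlap. These 4 sums had the same direction in CPM and in TPM put on the TMM scale, with an exact permutation p of 0.1 in each case (adjusted p = 0.22 in TPM), the smallest possible. Aldolase (1146 ± 112 and 1347 ± 85.6 TPM) and pyruvate dehydrogenase kinase (294 ± 18.9 and 312 ± 39.6 TPM) were higher in MR as TPM but lower by 86.8 and 51.9 on the TMM scale. The other 5 sums, of uptake, hexokinase, phosphofructokinase, lactate dehydrogenase and glycogen phosphorylase, were lower in MR and overlapped between groups in TPM. On the TMM scale and in CPM they did not overlap (exact permutation p of 0.1 each), and the difference in uptake went from -40.6 TPM to -86.7 on the TMM scale.

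Levels were also set relative to cardiomyocyte markers, whose sum was lower in MR, so that smaller falls had to fade on this scale. When the CPM of each gene was divided by the summed CPM of the 10 cardiomyocyte markers of its library, a description added after the data were examined, 10 of the 18 lower genes stayed below Sham on average and 5 did so without overlap. These 5 were Eno3 (log2 ratio -0.47), Slc2a12 (-0.40), Pgam2 (-0.21), Pygm (-0.21) and Slc2a4 (-0.20). On this scale Pfkm (0.024), Pdha1 (-0.025), Pdhb (0.031), Mpc1 (-0.023) and Mpc2 (-0.028) were close to Sham, with overlapping groups. The 10 lower genes that stayed below Sham on average were those with the largest falls by edgeR. Since the divisor was lower in every MR library, a gene with the same CPM in all libraries would stand at 0.54 here. Above Sham without overlap lay 21 of the 43 genes, the 6 called higher and 15 that were not called. Genes already higher without overlap could not do otherwise on this scale. The share of all genes without overlap on this scale was not computed, for these 21 or for the 5 above.

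Fat cell genes were high in MR 1 and MR 2. With MR 3 as the sole MR library, the spread within MR could not be estimated, so only log2 changes are given. Their median was -0.22 over the 43 genes and -0.01 over all genes tested. Pfkfb3 stood at 0.63 and Slc16a3 at 1.61. Lower were Slc2a4 (-0.76), Hk2 (-0.74), Pgam2 (-0.67), Eno3 (-0.81), Mpc2 (-0.60) and Pygm (-0.75). Every gene called with all 6 libraries kept its direction, and the smallest values were 0.16 for Pfkl and -0.18 for Gapdh.

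Other genes of the pathway, outside the 43, were listed by function. Of 20 further glycolysis and uptake genes tested, 3 were higher and 2 lower by edgeR (median log2 change -0.05). Eno2, the gamma-enolase of neurons, rose from 2.48 ± 0.42 to 6.24 ± 1.33 CPM (log2 change 1.31 ± 0.22, adjusted p = 0.00445 in edgeR), beside the fall of Eno3. Pgm1, the phosphoglucomutase that joins glycogen to glycolysis, fell from 118 ± 5.90 to 78.5 ± 10.2 CPM (log2 change -0.59 ± 0.11, adjusted p = 0.00672 in edgeR). Slc16a7, the lactate and pyruvate transporter MCT2, was higher (0.68 ± 0.17, adjusted p = 0.021 in edgeR) and Tigar, which breaks down fructose 2,6-bisphosphate, was lower (-0.34 ± 0.09, adjusted p = 0.022 in edgeR). The last pair lost their calls without single libraries: Slc16a7 without Sham 1, Sham 3, MR 2 or MR 3 (up to 0.0874), Tigar without Sham 2, Sham 3 or MR 2 (up to 0.0881) and under library totals (0.264).

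Beside Pdha1 and Pdhb, other genes of the pyruvate dehydrogenase complex fell too. Of 7 genes listed with the complex and its phosphatases, none was higher and 4 were lower by edgeR (median log2 change -0.60). The list included Pcx, pyruvate carboxylase, which is no part of the complex. Pcx did not pass (log2 change 0.41 ± 0.29, adjusted p = 0.328 in edgeR). Dlat and Dld, the acetyl-transferring and the lipoamide-reoxidising enzymes of the complex, fell by 0.72 ± 0.14 and 0.66 ± 0.12 on the log2 scale (adjusted p = 0.00751 and 0.0064 in edgeR). Pdp1 and Pdp2, the phosphatases that switch the complex on, fell by 0.60 ± 0.12 and 0.75 ± 0.17 (adjusted p = 0.00948 and 0.0132 in edgeR), the latter not without Sham 1 or Sham 2 (up to 0.0644).

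Of 19 further glycogen genes, 2 were higher and 5 lower by edgeR (median -0.22). Pygl, the liver phosphorylase, rose from 4.03 ± 0.20 to 8.32 ± 2.64 CPM (log2 change 1.04 ± 0.22, adjusted p = 0.0115 in edgeR, and 0.0542 without Sham 1). Stbd1, which tethers glycogen to membranes, rose (0.60 ± 0.15, adjusted p = 0.0184 in edgeR) unless Sham 1, Sham 2 or MR 3 was left out (up to 0.0706). Nhlrc1, which encodes malin, a ubiquitin ligase acting on glycogen enzymes, fell from 9.52 ± 0.13 to 5.81 ± 0.81 CPM (log2 change -0.71 ± 0.15, adjusted p = 0.00948 in edgeR). Phkb, a regulatory subunit of phosphorylase kinase, fell by 0.32 ± 0.08 (adjusted p = 0.0227 in edgeR), a call lost without Sham 2, Sham 3, MR 2 or MR 3 (up to 0.0962) and under library totals (0.309).

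Of 16 genes of the pentose phosphate, polyol and hexosamine branches, 1 was higher and 2 were lower by edgeR (median 0.03). Gfpt2, which feeds fructose 6-phosphate into hexosamines, rose from 21.4 ± 0.96 to 36.9 ± 8.35 CPM (log2 change 0.79 ± 0.15, adjusted p = 0.00649 in edgeR). The polyol enzymes Akr1b3 and Sord fell by 0.33 ± 0.09 and 0.32 ± 0.09 (adjusted p = 0.0259 and 0.0261 in edgeR) and did not pass under library totals (0.311 and 0.343). Each also lost its call without single libraries, Akr1b3 without Sham 1, Sham 3, MR 1 or MR 2 (up to 0.0815) and Sord without any library other than MR 3 (up to 0.0758).

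Of 19 genes of insulin signalling, GLUT4 traffic and AMPK, the energy sensor, 2 were higher and 4 lower by edgeR (median -0.09). Txnip, an arrestin that removes glucose transporters from the membrane, rose from 554 ± 101 to 935 ± 76.4 CPM (log2 change 0.75 ± 0.14, adjusted p = 0.00731 in edgeR), and its relative Arrdc4 rose by 0.51 ± 0.13 (adjusted p = 0.0243 in edgeR). The AMPK subunits Prkab1 and Prkaa2 fell by 0.54 ± 0.10 and 0.53 ± 0.12 (adjusted p = 0.00745 and 0.0126 in edgeR). Arrdc4 lost its call without Sham 1, Sham 2, MR 2 or MR 3 (up to 0.09) and Prkaa2 without Sham 2 (0.0535).

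Of 22 transcriptional regulators of glucose use, 1 was higher and 3 were lower by edgeR (median -0.03). Myc, an activator of glycolytic genes, went from 1.83 ± 0.42 to 3.49 ± 0.74 CPM (log2 change 0.92 ± 0.26, adjusted p = 0.0297 in edgeR). Mef2a and Mef2c, muscle factors that bind the Slc2a4 promoter, fell by 0.38 ± 0.11 and 0.35 ± 0.09, and Esrra, a receptor that drives oxidative genes, by 0.39 ± 0.10 (adjusted p = 0.0347, 0.0236 and 0.0223 in edgeR). All 4 calls were lost without some libraries. Myc lost it without Sham 1, Sham 2, MR 1 or MR 2 (up to 0.11), Esrra without Sham 1, Sham 3, MR 2 or MR 3 (up to 0.077), Mef2c without Sham 2, Sham 3, MR 2 or MR 3 (up to 0.0773) and Mef2a without any other than MR 1 (up to 0.102). Under library totals Mef2a, Mef2c and Esrra did not pass (0.228, 0.245 and 0.213).

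Of 15 genes induced by hypoxia but outside glucose use, 4 were higher and 2 lower by edgeR (median 0.24). Adm, the vasodilator adrenomedullin, rose from 4.34 ± 0.26 to 34.5 ± 10.8 CPM (log2 change 2.98 ± 0.23, adjusted p = 0.000149 in edgeR), and Ndrg1 from 35.1 ± 1.42 to 51.8 ± 1.28 CPM (0.56 ± 0.08, adjusted p = 0.00252 in edgeR). Egln1, the prolyl hydroxylase that marks hypoxia-inducible factors for destruction, fell by 0.58 ± 0.12, and the mitochondrial protein gene Higd1a by 0.51 ± 0.10 (adjusted p = 0.00898 and 0.00937 in edgeR, the latter 0.0519 under library totals). By edgeR, 26.7% of this list was higher and 13.3% lower, against 14% and 41.9% of the 43 genes. Among all genes tested the shares were 11.8% and 10.6%.

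Over these 7 lists, 35 of 118 genes tested passed by edgeR, 13 higher and 22 lower. That is 29.7%, against 22.4% of all genes tested. By list the share was 25% for the further glycolysis and uptake genes and 57.1% for the pyruvate dehydrogenase list, which includes Pcx. It was 36.8% for glycogen, 18.8% for the branches and 31.6% for insulin, GLUT4 traffic and AMPK. The regulators had 18.2% and the hypoxia-induced genes 40%. In the authors' deposited table, whose test is not named in the file, 31 of the 43 genes had an adjusted p below 0.05. Among them were all 24 called here, with the same sign. That table comes from the same 6 libraries, and the share of all genes below 0.05 in it was not computed.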

How the data were processed

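Poly(A) RNA of 6 left atria was sequenced as paired ends from stranded libraries, per the labels' protocols. Per the submitters' processing notes, build GRCm39 was used, and HISAT2 2.1.0, Subread 2.0.1 with featureCounts, SAMtools, fastp, MultiQC, FastQC and DESeq2 are listed without their roles. Neither the annotation nor the strand option used for counting is named in these sources, so antisense and overlapping genes may share reads. The deposited table holds counts per gene and library as whole numbers, not normalized, and TPM values made by the authors, per the file headers. A log2 fold change and an adjusted p-value of MR against Sham were also deposited, per the file headers, and are quoted only as theirs. All sample columns were matched to a library.

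The counts were tested with edgeR 4.0.16 (R 4.3.3; TMM, filterByExpr, quasi-likelihood test, 2 groups without covariates), and p-values were adjusted by the Benjamini-Hochberg method over the 15218 genes kept, which hold 99.8% of the counts. SE is the size of the log2 fold change divided by the square root of F. Isoform shares and step sums used the authors' TPM and a two-sided exact permutation test over libraries. Pairs of libraries within a group differed by 12.0 to 20.8 times sampling noise (a chi-square divided by its degrees of freedom), so none was treated as a duplicate. Alternatives were DESeq2 size factors, library totals, no filter, a minimum of 1 CPM in 3 libraries, limma-voom (limma 3.58.1), DESeq2 1.42.0, robust dispersion, glmTreat against a 1.5-fold change, a replicate block, mitochondrial and haemoglobin genes left out, MR 3 as the sole MR library, and each library left out. The edgeR test was also run on simulated counts with known changes, and the other steps were not.

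The 43 genes and all lists were chosen with earlier results of these data known. Named were all 43 genes and, of each list, up to 4 genes with the smallest p past the threshold. A few others, such as Pcx, Lpl, Myh4 and Myh6, were named as well. Akr1b3 was matched by gene identifier, and gene copies were found by their written description. Promoter windows came from RefSeq (GRCm38.p6), where 40 of the 43 genes had an entry; coordinates on GRCm39 were not used here. The motif search covered both strands of the 250 bases before each start.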

Additional observations from a re-analysis of the deposited data

How the results depend on the processing

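The genes called over the whole table numbered 3408 and went to 250 against a 1.5-fold change in glmTreat, to 976 with MR 3 as the sole MR library, and to between 1583 and 3453 without single libraries. Of the 43 genes, 24 were called; glmTreat called 0 (0 higher, 0 lower), where the edgeR test against no change called 24 and DESeq2 23, MR 3 alone gave 8 (2 higher, 6 lower), and leaving out single libraries gave 15 to 21. The 6 higher genes became 10 under library totals, 3 in DESeq2 and 3 to 6 without single libraries, and the 18 lower ones became 9 under library totals and 12 to 18 without single libraries. The 35 calls over the 7 pathway lists became 1 in glmTreat and 18 to 33 without single libraries. The causes were not tested beyond the fewer libraries and the added fold in these fits.

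Log2 fold changes that reversed under library totals were those of Hk1 (0.028), Gpi1 (0.030), Aldoa (0.10), Pgam1 (0.092), Ldha (0.10), Pdk1 (0.059), Pdk4 (0.16) and Pygb (0.11). Pdk3 reversed without a filter (-0.0079) and with MR 3 alone (-0.041), and ranged from -0.053 to 0.064 without single libraries. Pdk4 was 0.39 with MR 3 alone and ranged from -0.32 to 0.14, Ppargc1a from -0.10 to 0.24 and Dio2 from -0.48 to 1.29 without single libraries. With MR 3 alone Cfd (-0.023), Car3 (-0.38), Cidec (-0.30), Adipoq (-0.74) and Dio2 (-0.0013) reversed. The summed TPM of aldolase turned to -110.2 as CPM and -86.8 on the TMM scale, and that of pyruvate dehydrogenase kinase to -81.0 and -51.9. For these the cause was not tested. Of 1661 values of single genes in alternatives, 1338 kept their direction and side of the threshold, 287 lost the call, 11 gained one and 25 reversed. All 11 isoform shares were lower in MR in CPM and without each single library.

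Replicate numbers did not pair the libraries: same-numbered libraries correlated at -0.03, 0.01 and -0.16 in their deviations from the group means. With the replicate number as a block, 19 of the 43 genes were called, 3 higher and 16 lower, and 3085 of all genes; the paired exact permutation test of the isoform shares cannot go below p = 0.25.

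Counts as low as 4 a library for Aldoc and 24 for Slc16a3 limit their precision. Counts per gene do not show protein, flux, splice forms or the cell type of origin.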
